A study of Mus musculus with 10 samples.

Results

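The regions described here are the 100 bp windows of a deposited H3K4me3 table that lay within 500 bp of a region of the deposited H3K4me2 table and had no region of the H3K4me1 table within that distance. They numbered 14732 of the 32293 regions in the H3K4me3 table (45.6%), and of 85618 regions in the 3 tables together. A further 951 H3K4me3 regions lay within 500 bp of an H3K4me1 region, of which 427 also had an H3K4me2 region in reach, and 16610 had neither. The choice used positions only, in mm9 coordinates, and no Dnmt3a2 or H3K4me3 value entered it, apart from whatever decided which windows the tables hold, which the sources do not say. The regions carried no gene names and no annotation of that build was used here, so they are named by position.

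The series profiled Dnmt3a2, a short isoform of the de novo DNA methyltransferase Dnmt3a, by ChIP-seq through a FLAG antibody, with H3K4me3 ChIP-seq beside it. Its cells expressed 1 of 3 Dnmt3a2 constructs: the mutants WWD and R, whose exact changes the labels do not give, and WT. Cells of every group, WT included, were J1 mouse embryonic stem cells at passages 7 to 10 labelled Dnmt TKO, a name used for cells that lack Dnmt1, Dnmt3a and Dnmt3b, so Dnmt3a2 came from the construct in all of them. The labels list 2 Dnmt3a2 samples per construct, a line numbered 1 and a bulk population, but each table held 1 Dnmt3a2 column per construct that could not be assigned to either; the H3K4me3 columns were of line 1. The labels do not say whether line 1 is 1 clone. Values include background, because the input was not analysed here. With 1 library per construct and assay no difference between constructs can be tested, and every interval below is a 95% interval for counting error alone.

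Methylation of lysine 4 on histone H3 forms a gradient at active genes. The trimethylated form peaks at the promoter, the dimethylated form flanks it, and the monomethylated form lies farther out and marks enhancers. Dnmt3a carries an ADD domain that binds the tail of histone H3 when lysine 4 is unmethylated, and methylation of that lysine weakens the contact, which is a known reason why active promoters of mammalian cells stay free of DNA methylation. The series title states that this histone-recognition domain was engineered, and the comparison asked where the engineered proteins were found. The regions described here are H3K4me3 windows with an H3K4me2 window near them. No H3K4me2 or H3K4me1 library was among the samples, so those marks could not be checked in these cells.

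No region of the H3K4me3 table overlapped a region of the other tables. The smallest distance between an H3K4me3 region and an H3K4me2 region was 2 bp, counted between facing ends, and the median over the 14732 regions was 142 bp (quartiles 56 and 269). Of these regions, 5723 lay within 100 bp of the nearest H3K4me2 region, 3646 at 101 to 200 bp, 2290 at 201 to 300 bp, 1729 at 301 to 400 bp and 1344 at 401 to 500 bp. Their number thus thinned steadily with distance, with no step at the 500 bp limit, where 305 regions lay in the last 25 bp inside and 258 in the first 25 bp outside.

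**Figure D1:**
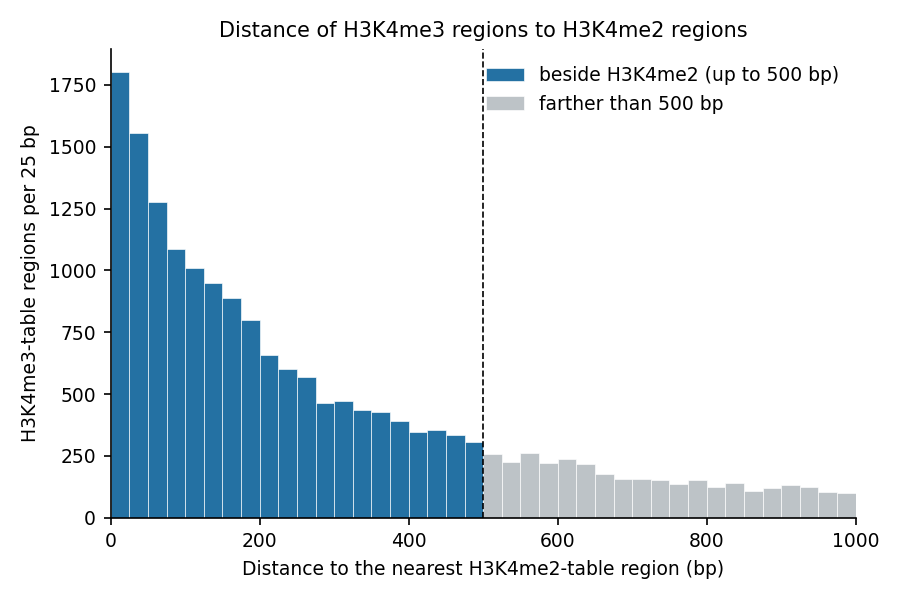
Distance in bp from H3K4me3-table regions to the nearest H3K4me2-table region, for regions with no H3K4me1 region within 500 bp. Bars count regions per 25 bp, blue for the 14732 regions described here and grey beyond the dashed 500 bp limit, and fall off smoothly across it.

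Most of the regions had a single H3K4me2 neighbour. Of the 14732 regions, 13103 had 1 H3K4me2 region in reach, 1617 had 2 and 12 had 3. The neighbour lay only at lower coordinates for 6639 regions, only at higher coordinates for 6541, and on both sides for 1552 (10.5%). Neither side was favoured, and flanks of H3K4me2 on both sides were the exception in these tables. Regions beside H3K4me2 also lay closer to further H3K4me3 regions: 43.2% were within 500 bp of another H3K4me3 region, against 37.2% of regions beside neither mark and 23.8% of those beside H3K4me1. H3K4me1 was distant from most of them, with none within 5000 bp of 10682 regions, a nearest one at 1001 to 5000 bp for 3125 and at 501 to 1000 bp for 925.

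The regions carried more H3K4me3 than the rest of the table in each construct. Their mean H3K4me3 signal, in reads per region per 10000000 library reads, was 36.6 in WWD, 34.6 in R and 41.4 in WT. Regions beside neither mark had means of 26.0 in WWD, 24.3 in R and 29.0 in WT, and regions beside H3K4me1 had 15.9 in WWD, 14.9 in R and 17.7 in WT. The order of the 3 kinds of region was the same in all 3 libraries, with the regions beside H3K4me2 highest. The level was not particular to the 500 bp limit. Of the regions beside neither mark, the 969 at 501 to 600 bp from H3K4me2 had higher means still, at 40.9 in WWD, 39.0 in R and 47.9 in WT. Medians of the regions beside H3K4me2 were 26.5 in WWD, 24.1 in R and 30.3 in WT. Their means were thus pulled up by a tail that reached 324 in WWD, 338 in R and 416 in WT. The H3K4me3 libraries held 26012284 reads in the WWD library, 27424019 in R and 18801269 in WT, of which these regions took 5.398%, 5.10% and 6.09%, in that order.

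**Figure D2:**
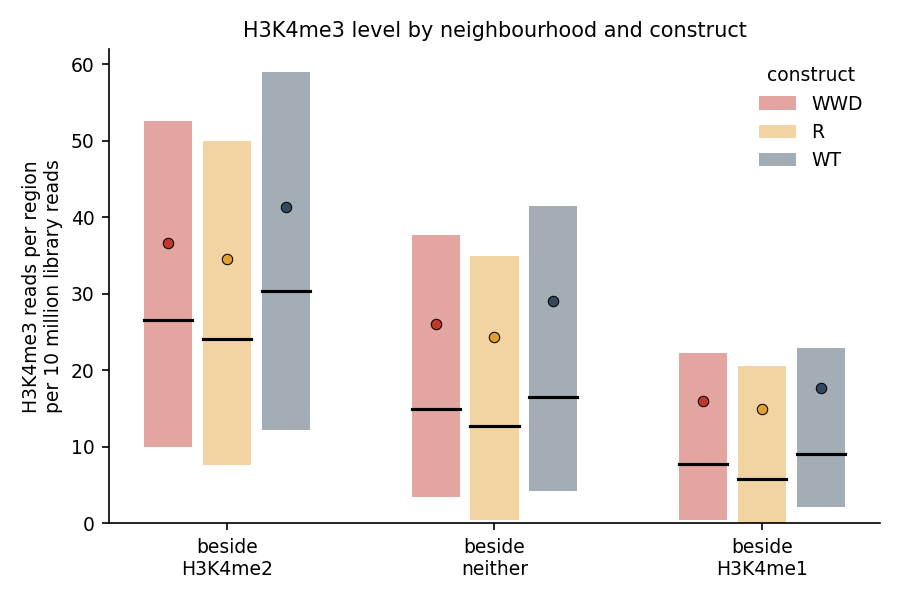
H3K4me3 signal (reads per region per 10000000 library reads) in WWD, R and WT at regions beside H3K4me2, beside neither mark and beside H3K4me1. Boxes span the quartiles, lines are medians and points are means; in each construct the regions beside H3K4me2 are highest, with means of 36.6, 34.6 and 41.4.

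H3K4me3 rank among the regions was largely kept between libraries. Spearman's rho over the 14732 regions was 0.84 between WWD and WT, 0.77 between R and WT and 0.76 between WWD and R, given as a description because the regions share libraries and neighbours. A minority had no H3K4me3 read at all, 6.39% in WWD, 10.8% in R and 3.49% in WT, although R was the deepest of the 3 libraries. In the lowest H3K4me3 quintile of these regions the share without a read was 30.3% in WWD, 47.6% in R and 17.1% in WT, and in the highest it was 0 in each. Only 185 regions had no H3K4me3 read in any library.

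The mutant H3K4me3 libraries were lower than the WT one over the regions as a whole. Summed signal was 0.886 times WT in WWD (0.884 to 0.888) and 0.837 times WT in R (0.835 to 0.839). Regions beside neither mark gave similar ratios, 0.896 for WWD (0.894 to 0.898) and 0.839 for R (0.837 to 0.841). The median log2 ratio over these regions was -0.17 for WWD and -0.28 for R, against -0.13 and -0.25 over the whole table, so a shift of like size was present over the whole table. The 2 ratios share the WT library.

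Changes beyond 2-fold in H3K4me3 were about as common here as in the table as a whole. With a pseudocount of 3.72 reads per 10000000, 1051 regions (7.13%) were over 2-fold higher in WWD than in WT, where the share of the whole table was 8.44%, and 2222 (15.1%) were over 2-fold lower, where it was 15.5%. In R, 1239 regions (8.41%) were over 2-fold higher than in WT, against 9.06% of the table, and 3627 (24.6%) were over 2-fold lower, against 24.7%. Shares so close to those of the table are no result about these regions. The split between higher and lower depended on the scaling. With each library centred on its median log2 ratio over the table, 1346 regions were higher and 1760 lower in WWD, and R was higher at 1898 and lower at 2663. With the pseudocount raised to 24.6, the median of positive values, WWD was over 2-fold higher at 78 regions and lower at 281, and R at 166 and 795. Shares of the whole table at these other settings are not given, so these counts are no result about these regions either.

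The changes were concentrated where H3K4me3 was weak. In the lowest quintile of the regions by H3K4me3, 23.4% were over 2-fold lower in WWD and 35.5% in R, and 12.0% were over 2-fold higher in WWD and 10.0% in R. In the highest quintile 5.43% were lower in WWD and 11.4% in R, with 1.59% higher in WWD and 2.58% in R. Few reads give wide ratios by counting error, so these shares do not show that weak regions responded more.

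Single regions nonetheless differed far beyond counting error. At chr8:82204591-82204690, 110 bp from an H3K4me2 region, H3K4me3 had 171 reads in the WWD library, 52 in R and 4 in WT, which made WWD 30.9 times WT (11.9 to 115) after scaling for depth. At chr13:55283724-55283823 it had 168 reads in the WWD library, 73 in R and 13 in WT, a WWD to WT ratio of 9.34 (5.32 to 17.9). Both windows were lowest in WT, intermediate in R and highest in WWD. The opposite held at chr15:90509609-90509708, where H3K4me3 had 2 reads in the WWD library, 141 in R and 95 in WT, so that the WWD library stood alone at 0.0152 times WT (0.00182 to 0.0565).

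Regions where R stood apart were as marked. H3K4me3 at chrX:96132651-96132750 had 25 reads in the WWD library, 192 in R and 10 in WT, an R to WT ratio of 13.2 (7.00 to 27.9). At chr1:194979407-194979506 it had 211 reads in the WWD library, 1 in R and 162 in WT, an R to WT ratio of 0.00423 (0.000106 to 0.0239). At chr5:117041781-117041880 there were 54 reads in the WWD library, 0 in R and 128 in WT, so R was at least 62.2-fold lower than WT when 0 was replaced by a floor of 3 reads in the library. The first window was thus strongly covered in the R library alone, and the other windows were near empty in it alone. They were picked for the size of the difference, which the intervals do not allow for, and a difference between cultures cannot be told apart from one between constructs.

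The strongest H3K4me3 windows were picked by the level in their lowest library, so their strength in every library follows from the choice. The window at chr3:133207081-133207180 had 324 reads per 10000000 in WWD, 288 in R and 248 in WT. That at chr8:14090113-14090212 had 315 in WWD, 324 in R and 269 in WT, and chr8:20019787-20019886 had 284 in WWD, 335 in R and 416 in WT. Of the 5 windows with the highest level in their lowest library, 3 lay on chromosome 8, a chromosome with raised signal in every library described below.

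Dnmt3a2 signal at the regions was higher in the WWD library than in the other two. It averaged 0.438 reads per region per 10000000 library reads in WWD (0.430 to 0.447), 0.165 in R (0.161 to 0.170) and 0.154 in WT (0.150 to 0.158). WWD was 2.84 times WT (2.75 to 2.94) and 2.65 times R (2.57 to 2.73), and R was 1.07 times WT (1.03 to 1.11). These are small numbers: the regions took 0.0646% of the 17259400 WWD reads, 0.0244% of the 25254320 R reads and 0.0227% of the 24015095 WT reads. The ratio of WWD to WT at regions of the H3K4me1 table, measured in the same libraries, was 1.78 (1.75 to 1.81).

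The share of regions with any Dnmt3a2 read gave the same order for WWD. A read was present at 3492 regions in WWD (23.7%, 23.0 to 24.4), 1303 in R (8.84%, 8.39 to 9.31) and 1305 in WT (8.86%, 8.404 to 9.33), although the WWD library was the shallowest. The share in WWD was 2.68 times that in WT (2.52 to 2.84), and the share in R was 0.998 times that in WT (0.928 to 1.07). The interval for R over WT includes 1, and the small excess of R in summed reads came with more reads per occupied region. Occupied regions held 3.19 reads on average in WWD, 4.72 in R and 4.18 in WT, and only 28.4% of them in WWD, 25.9% in R and 24.0% in WT held a single read. Reads were thus clumped, and the read-based intervals, which treat each read as independent, are too narrow where reads come in clumps. The libraries had been amplified by PCR, and whether duplicate reads made the clumps was not tested.

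**Figure D3:**
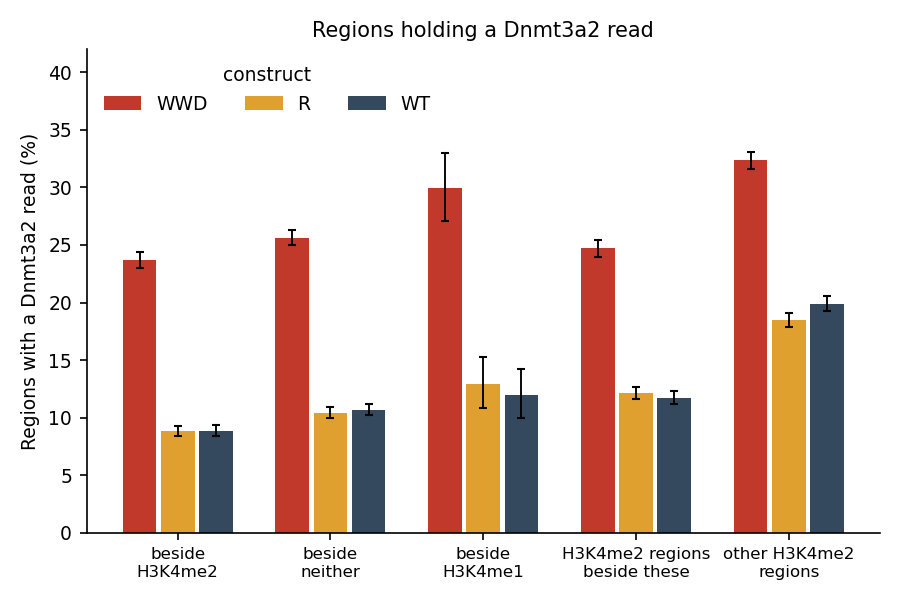
Percentage of regions with at least 1 Dnmt3a2 read in WWD, R and WT at H3K4me3 regions beside H3K4me2, beside neither mark or beside H3K4me1, at the H3K4me2 regions beside the first group, and at the remaining H3K4me2 regions. Error bars are exact 95% binomial intervals; WWD is highest in every class, at 23.7% of H3K4me3 regions beside H3K4me2.

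Few regions held Dnmt3a2 in more than 1 library. No read of any construct fell on 9476 regions (64.3%), WWD alone had reads at 2780 (18.9%), R alone at 827 (5.61%), WT alone at 847 (5.75%), and all 3 had reads at 42. The shares of the whole table with these patterns are not given here, so the counts are no result about these regions. Over the whole table, 24.9% of regions had a read in WWD, 9.79% in R and 9.89% in WT. Reads in WWD without any in WT were seen at 3124 regions (21.2%), against 21.8% of the whole table, and reads in WT without any in WWD at 937 (6.36%), against 6.79%. Reads in R without any in WT were seen at 1171 regions (7.95%), where the table had 8.56%, and reads in WT without any in R at 1173 (7.96%), where the table had 8.66%. All 4 shares were slightly below those of the table, so they are read as background and not as a result about regions beside H3K4me2.

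Windows occupied in WWD were slightly more often occupied in the other libraries too. Of the 3492 regions with a WWD read, 11.1% also had an R read, against 8.16% of regions without a WWD read, and 10.5% had a WT read, against 8.34%. Of the 1303 regions with an R read, 29.6% had a WWD read, and of the 1305 with a WT read 28.2% did. Shared occupation was thus modest, and the rank correlation of Dnmt3a2 reads between libraries over the regions was 0.04 for WWD with WT, 0.01 for R with WT and 0.04 for WWD with R. At such sparse counts these values are no finding about binding. Restricting to the 802 regions occupied in at least 2 libraries lowered the ratio of WWD to WT to 1.69 and that of WWD to R to 1.47, values shaped by the requirement itself, which removes the many regions with reads in WWD alone.

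The regions with the largest differences in Dnmt3a2 reads show how the signal was made up. At chr4:143002903-143003002 Dnmt3a2 had 18 reads in the WWD library, 0 in R and 0 in WT, at least 8.35-fold more in WWD than in WT with the floor of 3 reads. At chr15:94374154-94374253 it had 16 reads in WWD against 0 in the other libraries. The largest differences the other way were as lopsided: chr2:49716592-49716691, which had no H3K4me3 read in any library, held 0 Dnmt3a2 reads in the WWD library, 0 in R and 18 in WT. In R the highest was chr9:78015191-78015290, with 4 reads in the WWD library, 25 in R and 0 in WT. Every construct had such windows of 16 or more reads in its own library with few or none elsewhere, so a single window says little about a construct.

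Windows with Dnmt3a2 reads in all 3 libraries were rare. The 3 named here were picked for the highest Dnmt3a2 in their lowest library and do not stand for the rest of the 42. Their H3K4me3 was uneven. At chr8:47636951-47637050 Dnmt3a2 had 3 reads in the WWD library, 9 in R and 10 in WT, and H3K4me3 had 102 reads in the WWD library, 43 in R and 188 in WT. At chr1:134161462-134161561 Dnmt3a2 had 4 reads in the WWD library, 6 in R and 10 in WT, and H3K4me3 had 28, 18 and 4 in the same order. At chr15:100252904-100253003 Dnmt3a2 had 4 reads in the WWD library, 6 in R and 14 in WT, and H3K4me3 had 27, 7 and 42 in the same order. WT had the highest Dnmt3a2 at each of these windows. Its H3K4me3, scaled for depth, was the highest at the chr8 and chr15 windows and the lowest at the chr1 window.

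In summed reads, Dnmt3a2 was lower at strong than at weak H3K4me3 windows, most so in WT and least in WWD. When the regions were divided into quintiles by H3K4me3, numbered 1 to 5 from the lowest, mean Dnmt3a2 in WWD was 0.518 reads per 10000000 in quintile 1, 0.424 in quintile 2, 0.372 in quintile 3, 0.418 in quintile 4 and 0.460 in quintile 5. In R it was 0.212, 0.160, 0.153, 0.142 and 0.161 over the same quintiles, and in WT it was 0.228, 0.162, 0.125, 0.126 and 0.130. Quintile 5 had 0.887 times the signal of quintile 1 in WWD (0.839 to 0.938), 0.760 times in R (0.705 to 0.820) and 0.571 times in WT (0.526 to 0.620). WWD dipped in the middle and was higher again at the top, whereas WT stayed low from quintile 3 upward. Among the 802 regions occupied in at least 2 libraries this ratio was 1.01 in WWD, 1.005 in R and 0.945 in WT.

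The ratio of WWD to WT was therefore larger at stronger H3K4me3. It was 2.28 in quintile 1 (2.14 to 2.42), 2.61 in quintile 2 (2.43 to 2.81), 2.98 in quintile 3 (2.75 to 3.23), 3.33 in quintile 4 (3.07 to 3.60) and 3.54 in quintile 5 (3.27 to 3.82). The ratio of shares with a read grew likewise, at 2.04 in quintile 1 (1.83 to 2.29) and 3.30 in quintile 5 (2.87 to 3.80). For R over WT the ratio of signal was 0.931 in quintile 1 (0.868 to 0.999) and 1.24 in quintile 5 (1.14 to 1.35). The H3K4me3 used to form the quintiles was the mean of the 3 H3K4me3 libraries, which are separate from the Dnmt3a2 libraries.

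At a like H3K4me3 level, regions beside H3K4me2 and regions beside neither mark had WWD to WT ratios whose counting intervals overlapped at the 500 bp distance. In quintiles cut over the whole table, the ratio of WWD to WT in the lowest was 2.24 (2.07 to 2.43) beside H3K4me2 and 2.27 (2.16 to 2.38) beside neither. In the highest it was 3.48 (3.25 to 3.73) beside H3K4me2 and 3.68 (3.41 to 3.98) beside neither, which were 3.15 and 3.89 with the distance set to 250 bp and 3.55 and 4.11 at 1000 bp. Among regions occupied in at least 2 libraries, the ratio in the lowest quintile was 1.88 beside H3K4me2 and 1.66 beside neither, and in the highest 1.82 and 2.09, so under that filter it was not larger at strong H3K4me3 beside H3K4me2. The regions beside H3K4me2 were more often in the upper quintiles, with 3757 in the highest and 1753 in the lowest, against 2643 and 4364 of the regions beside neither. Without division by H3K4me3, the WWD to WT ratio of 2.84 beside H3K4me2 was 1.04 times the 2.72 beside neither (1.001 to 1.09), and 0.978 times the 2.91 beside H3K4me1 (0.874 to 1.09).

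**Figure D4:**
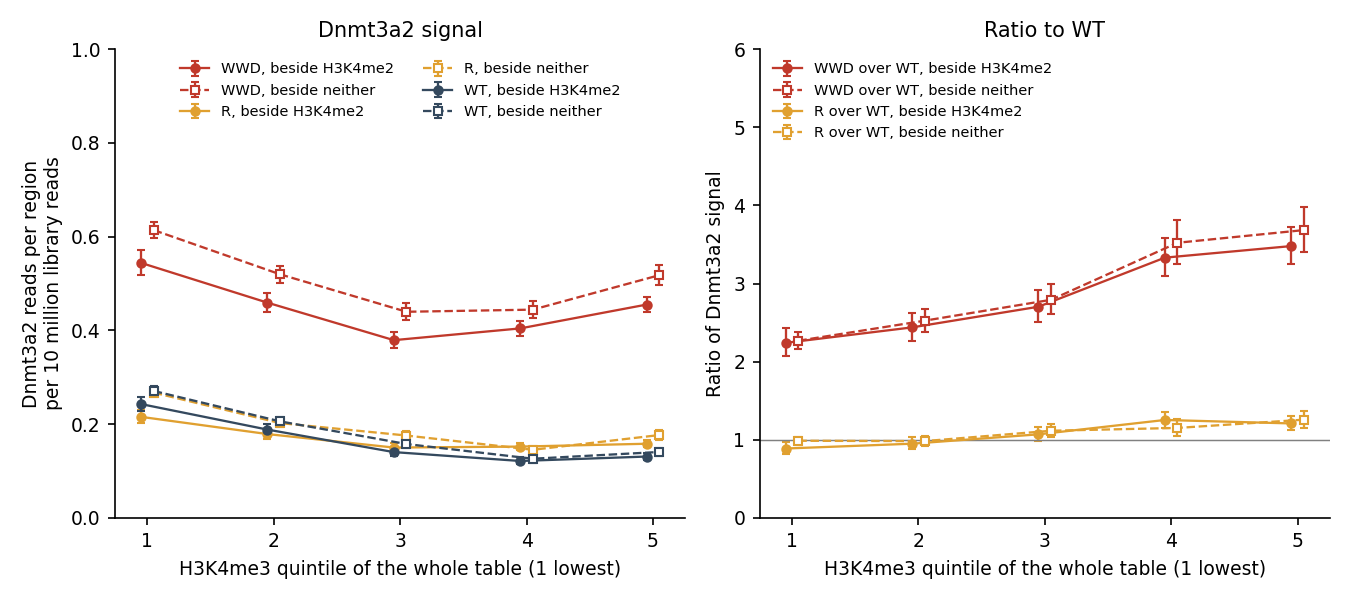
Dnmt3a2 signal (left, reads per region per 10000000 library reads) and its ratio to WT (right) by quintile of mean H3K4me3 over the whole H3K4me3 table, for regions beside H3K4me2 (filled circles) and beside neither mark (open squares), with 95% counting intervals. The ratio of WWD to WT climbs with H3K4me3 in both sets, to 3.48 and 3.68.

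Without division by H3K4me3, the level of Dnmt3a2 itself did differ between these kinds of region. Over all regions it was lower beside H3K4me2 than beside neither in each library: 0.438 against 0.516 in WWD, 0.165 against 0.200 in R and 0.154 against 0.190 in WT. In the highest H3K4me3 quintile of the table it was 0.455 against 0.518 in WWD, 0.158 against 0.177 in R and 0.131 against 0.141 in WT. In summed reads the difference in WWD was larger than the counting intervals, and in WT at this H3K4me3 level the intervals overlapped. In quintile 4 of the table, summed reads in R ran the other way, at 0.152 against 0.145, with overlapping intervals. The share of regions with a WWD read, which clumps move less, had overlapping intervals in both quintiles. It was 24.6% (23.3 to 26.1) beside H3K4me2 and 25.8% (24.1 to 27.5) beside neither in the highest. In quintile 4 its order was reversed, at 22.3% (20.9 to 23.7) and 21.9% (20.4 to 23.5). Over all regions the WWD shares were 23.7% and 25.6%, and their intervals did not overlap. Background cannot be told apart from binding here.

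The H3K4me2 windows next to the regions gave a local comparison within the same libraries. Dnmt3a2 at the 13417 H3K4me2 regions within 500 bp averaged 0.447 reads per 10000000 in WWD, 0.235 in R and 0.208 in WT. The H3K4me3 regions thus had 0.981 times the signal of their H3K4me2 neighbours in WWD (0.955 to 1.01), 0.703 times in R (0.680 to 0.727) and 0.742 times in WT (0.716 to 0.769). In R and WT, Dnmt3a2 was lower on the H3K4me3 side than on the H3K4me2 side of the pair, and in WWD the sides were level. The WWD to WT ratio was 2.15 at the neighbouring H3K4me2 regions (2.09 to 2.22) and 1.64 at the other 15606 H3K4me2 regions (1.60 to 1.68), so it was lower in both than at the H3K4me3 regions.

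A read on an H3K4me3 region said little about its neighbour. In WWD an H3K4me2 neighbour held a read beside 27.5% of regions with a read and beside 25.9% of regions without. The shares were 15.3% and 12.5% in R, and 14.6% and 12.2% in WT. The shares with and without a read thus lay close together, at a depth too low to show whether the same stretches of chromatin were bound.

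H3K4me3 was lower close to the H3K4me2 region, whereas Dnmt3a2 showed no steady order with distance. Mean H3K4me3 was lowest in regions within 100 bp of H3K4me2, at 32.8 in WWD, 31.2 in R and 36.4 in WT, and higher at 301 to 400 bp, at 42.3 in WWD, 38.9 in R and 48.9 in WT. Dnmt3a2 in WWD was 0.439 reads per 10000000 within 100 bp and 0.458 at 301 to 400 bp, in R it was 0.159 and 0.166, and in WT it was 0.179 and 0.109. At 401 to 500 bp it was 0.380 in WWD, 0.162 in R and 0.124 in WT, and at 201 to 300 bp it was 0.477 in WWD, 0.174 in R and 0.160 in WT. No library changed steadily with distance: WWD was highest at 201 to 300 bp and lowest at 401 to 500 bp, and WT was highest within 100 bp and lowest at 301 to 400 bp. The ratio of WWD to WT was 2.62 (2.52 to 2.73) for regions up to 200 bp from H3K4me2 and 3.33 (3.15 to 3.52) for those farther away, or 1.55 and 2.01 among regions occupied in at least 2 libraries. For the share of regions with a read, which clumps of reads move less, the same ratios were 2.56 (2.38 to 2.76) and 2.91 (2.62 to 3.22), whose intervals overlap.

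The difference in signal ran the same way in every H3K4me3 quintile of the table except quintile 4. Within the highest H3K4me3 quintile of the table the WWD to WT ratio was 3.04 up to 200 bp (2.78 to 3.32) and 4.23 beyond (3.79 to 4.72). In quintile 1 it was 2.06 up to 200 bp (1.86 to 2.27) and 2.60 beyond (2.28 to 2.96). In quintile 2 it was 2.18 up to 200 bp (2.01 to 2.37) and 3.27 beyond (2.84 to 3.77). In quintile 3 it was 2.46 up to 200 bp (2.25 to 2.69) and 3.35 beyond (2.91 to 3.86). In quintile 4 the order was reversed, at 3.53 up to 200 bp (3.22 to 3.87) and 2.995 beyond (2.65 to 3.396), so the relation with distance was not uniform. The ratios of shares with a read, up to 200 bp and beyond, had overlapping intervals in each quintile. They were 1.92 (1.62 to 2.29) and 2.02 (1.59 to 2.57) in quintile 1, and 2.28 (1.95 to 2.66) and 2.46 (1.95 to 3.12) in quintile 2. In quintile 3 they were 2.46 (2.09 to 2.89) and 2.97 (2.32 to 3.81). They were 3.33 (2.81 to 3.95) and 3.17 (2.504 to 4.02) in quintile 4, and 2.86 (2.44 to 3.34) and 3.66 (2.999 to 4.46) in quintile 5. Just inside the 500 bp limit, at 401 to 500 bp, the ratio was 3.08 (2.73 to 3.47), and at the 969 H3K4me3 regions just outside, at 501 to 600 bp, it was 2.76 (2.42 to 3.15).

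**Figure D5:**
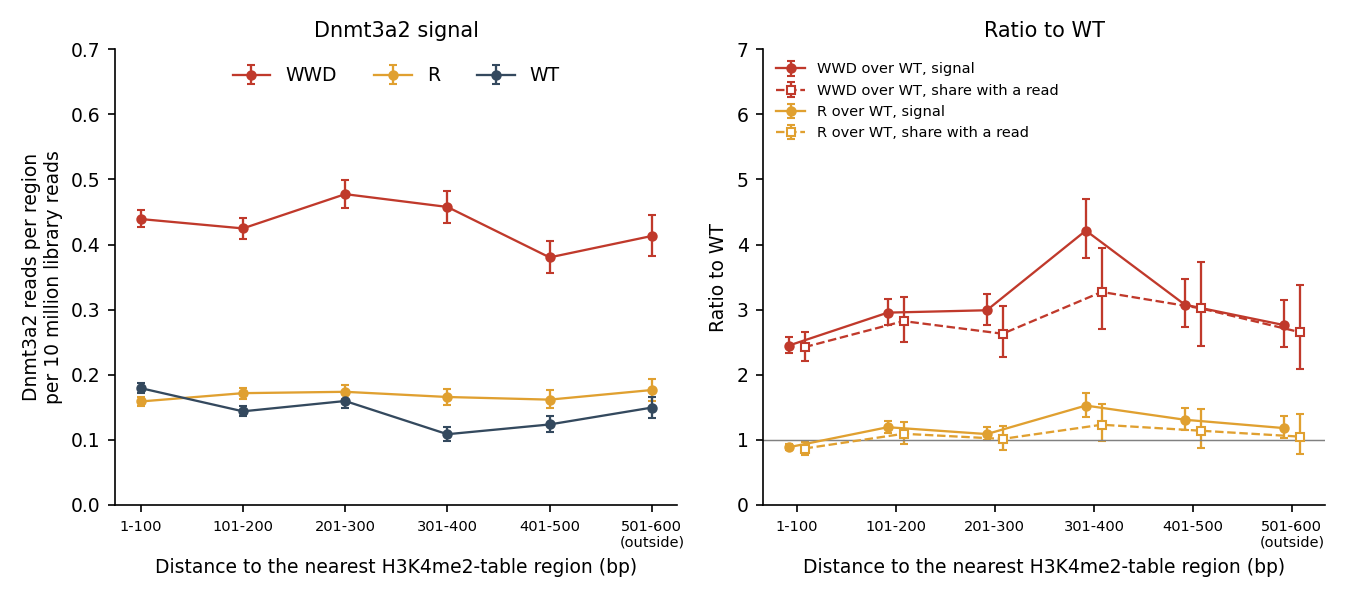
Dnmt3a2 signal (left, reads per region per 10000000 library reads) in WWD, R and WT, and ratios to WT (right) of signal and of the share of regions with a read, by distance in bp to the nearest H3K4me2 region, with 95% counting intervals. The last bin holds the 969 regions just outside the 500 bp limit; the WWD to WT ratio is lowest within 100 bp and peaks at 301 to 400 bp, at 4.21.

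The number of H3K4me2 neighbours made a smaller difference. Regions with H3K4me2 on both sides had H3K4me3 means of 41.2 in WWD, 38.7 in R and 46.5 in WT, above the 36.1, 34.1 and 40.8 of regions with it on 1 side. Their Dnmt3a2 means were 0.383 in WWD, 0.174 in R and 0.150 in WT, against 0.445, 0.164 and 0.155. The WWD to WT ratio was 2.56 with H3K4me2 on both sides (2.30 to 2.84) and 2.88 with it on 1 side (2.78 to 2.98), intervals that barely overlap, and the ratios of shares with a read, 2.64 (2.17 to 3.20) and 2.68 (2.52 to 2.85), were alike.

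Regions that stood alone and regions in runs of H3K4me3 windows were compared next. Mean H3K4me3 was 35.1 in WWD, 33.3 in R and 39.3 in WT at the 8373 solitary regions, and 39.6 in WWD, 37.1 in R and 44.7 in WT at the 1474 regions in runs of 3. In runs of 2 it was 38.6 in WWD, 36.4 in R and 44.3 in WT. In runs of 4 or more it was below that of solitary regions, at 33.3 in WWD, 31.1 in R and 36.1 in WT. The ratio of WWD to WT for Dnmt3a2 was 2.76 at solitary regions (2.65 to 2.88), 2.89 in runs of 2 (2.71 to 3.07), 3.59 in runs of 3 (3.21 to 4.02) and 1.82 at the 271 regions in longer runs (1.43 to 2.34). These values showed no order with run length. The longest run made of the regions alone spanned chr14:31528073-31529872, with 5 windows and 2 H3K4me2 regions beside them. Over its windows Dnmt3a2 had 5 reads in the WWD library, 0 in R and 0 in WT, and H3K4me3 had 294, 380 and 197 in the same order.

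Regions with an H3K4me1 region 501 to 1000 bp away had similar H3K4me3 but more summed Dnmt3a2 reads in R and WT. Where the nearest H3K4me1 region was 501 to 1000 bp away, mean H3K4me3 was 36.4 in WWD, 33.7 in R and 40.5 in WT, close to the 36.7 in WWD, 34.9 in R and 41.6 in WT of regions with none within 5000 bp. Dnmt3a2 at these regions, and at those with none within 5000 bp, was 0.443 (0.411 to 0.477) and 0.434 (0.424 to 0.443) in WWD, 0.214 (0.195 to 0.233) and 0.167 (0.162 to 0.172) in R, and 0.176 (0.159 to 0.195) and 0.151 (0.146 to 0.156) in WT. The intervals of the pair overlapped in WWD and did not in R or WT. For the share of regions with a read they overlapped in R and WT too. These shares were 10.5% (8.59 to 12.6) and 8.67% (8.14 to 9.22) in R, and 9.95% (8.09 to 12.1) and 8.58% (8.06 to 9.13) in WT. At 1001 to 5000 bp the signal was 0.453 in WWD, 0.145 in R and 0.159 in WT, so R followed no order with distance. The ratio of WWD to WT was 2.51 (2.22 to 2.85) at 501 to 1000 bp and 2.88 (2.77 to 2.99) with none within 5000 bp. That of WWD to R was 2.08 (1.85 to 2.33) and 2.59 (2.499 to 2.69). The 427 H3K4me3 regions that had both an H3K4me2 and an H3K4me1 region within 500 bp, and so were not among those described, had lower H3K4me3 means of 21.6 in WWD, 19.8 in R and 23.9 in WT.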

How the data were processed

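The deposited tables give log2 values per 100 bp region. Per the file headers, a factor scales the total reads of every column to an effective total. The aligner was Bowtie and the build mm9, per the submitters' processing notes, and the sources used here do not say how regions were called. The log2 values had the form log2 of 1 plus the factor times whole reads plus an amount below 1, rounded to 2 decimals, as read from the values themselves. Whole reads were recovered by inverting it, and values whose rounding interval spanned a whole number went to the likelier side. This was tested on data simulated with that same form, which cannot show that the deposited values have it. At 100 H3K4me3 reads the rounding interval is 0.70 reads wide, and at the highest up to 6.43. Reads were scaled to 10000000 of the header total.

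No 2 columns were identical, and 2 columns that belong to no listed sample were not used. With 1 column per construct the comparisons are descriptive. Intervals are exact Poisson (means), Clopper-Pearson (shares), conditional binomial (ratios of signal) or log-normal (ratios of shares). Distances are between facing ends; the 500 bp selection was checked with bedtools 2.31.1. The pseudocount was the 10th percentile of positive H3K4me3 values. Named regions were ranked by H3K4me3 in their lowest library, by H3K4me3 ratio among regions above the median, or by difference in Dnmt3a2 reads. Other lists ranked by Dnmt3a2 in the lowest library or by run length, and each list named at most 1 region per run. The regions and lists were chosen with earlier results of these data known. Alternatives changed the distance, scaling, pseudocount, filters, a cap of 20 reads and the chromosomes used. Python 3.11.15, numpy 2.4.6, pandas 2.3.3, scipy 1.17.1 and matplotlib 3.10.9 were used.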

Additional observations from a re-analysis of the deposited data

How the results depend on the processing

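The 23 results were recomputed 149 times in all. Of these values 110 lay inside the counting interval reported (or, for a count, differed by less than 1.5 times), 35 moved and 4 reversed; the causes were not tested. Setting the distance to 250 bp gave Dnmt3a2 ratios of 2.70 for WWD to WT and 1.03 for R to WT, 0.832 for the WWD to WT ratio over that beside H3K4me1 and, reversed, 0.962 over that beside neither, with H3K4me3 ratios of 0.891 for WWD and 0.851 for R. At 1000 bp the H3K4me3 ratios were 0.881 for WWD and 0.833 for R. Requiring a Dnmt3a2 read in at least 2 libraries gave signal ratios of 1.69 for WWD to WT, 1.15 for R to WT and 1.47 for WWD to R, share ratios of 1.55 for WWD to WT and 1.496 for WWD to R, and 0.985 over regions beside neither, reversed; the highest over the lowest H3K4me3 quintile was then 1.01 in WWD and 1.005 in R, both reversed, and 0.945 in WT. This filter keeps a region through its highest libraries. With the pseudocount at the median, WWD was over 2-fold higher at 78 regions and lower at 281, and R at 166 and 795. Centring gave H3K4me3 ratios of 0.967 for WWD and 0.997 for R, and 1898 regions higher in R. Among regions above the table median of H3K4me3 the ratios were 0.892 for WWD and 0.850 for R, with WWD higher at 391 and lower at 923, and R at 555 and 1666. Without whole-table shares at these settings, the counts past 2-fold are no result about these regions. Dropping decimals to recover reads, chosen after seeing the data, adds at most 1 read per value and moved no result beyond these limits, nor did the pseudocount at the 1st percentile, the cap of 20 reads or leaving out chromosomes 8 and X. Scaling by the effective total left 3 of the ratios as they were by construction, since it is the same for every column of a table. No paired analysis was possible because a construct had only 1 column in either assay, and no replicate could be left out. Depth is the main limit: most regions held no Dnmt3a2 read.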

Other observations

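Chromosomes 8 and X stood apart in all 6 libraries at the H3K4me3 regions beside H3K4me2. On chromosome 8, with 714 of these regions, mean signal over the median autosome was 1.36 for Dnmt3a2 in WWD, 1.37 in R and 1.48 in WT, and for H3K4me3 it was 1.32 in WWD, 1.30 in R and 1.36 in WT. Chromosome X, with 485 of them, had ratios for Dnmt3a2 of 0.535 in the WWD library, 0.609 in the R library and 0.576 in the WT library, and for H3K4me3 of 0.537, 0.566 and 0.507 in that order. Both shifts were of like size in the antibodies and constructs.

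The WWD to WT ratio of Dnmt3a2 was above 1 on 20 of 20 chromosomes, with a median of 2.84 and a range of 2.01 on chromosome 1 to 5.37 on chromosome 18. The R to WT ratio was above 1 on 10 of 20, and ran from 0.772 on chromosome 4 to 1.86 on chromosome 18. On chromosome 18, the extreme of both, the signal was 0.376 reads per region per 10000000 in WWD, 0.130 in R and 0.0700 in WT, and the WT value, which the ratios share, was the lowest of all autosomes. The ratio of shares with a read there, which clumps move less, was 3.76. H3K4me3 was below WT on every chromosome, with WWD to WT ratios of 0.849 to 0.954 and R to WT ratios of 0.792 to 0.949, both closest to 1 on chromosome X.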
